A study of Sorghum bicolor with 15 samples.

Results

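Roots of 28-day-old SRN39 plants were compared with roots of Shanqui Red (SQR) plants of the same age, gene by gene. SRN39 is a Striga-resistant sorghum variety with a deletion of several genes, LOW GERMINATION STIMULANT 1 (LGS1) among them. SQR is a Striga-susceptible variety with LGS1. The comparison rested on 4 SRN39 and 4 SQR libraries of the 15 libraries used here, each from the whole root system of a biological replicate. Members were the genes with more than 1 CPM (counts in each 1000000 of the library) in at least 3 of these 8 libraries, which kept 17029 of the 34129 genes in the table (49.9%). All plants, of both varieties, grew in a greenhouse in sand with a plug of sterilised field soil, without Striga, and received a half-strength Hoagland solution low in phosphate. The transcriptomes were read with 3′ mRNA-Seq, which counts one fragment near the end of each transcript, so a level here is a number of reads relative to the library and not to gene length. The varieties differ at many loci besides LGS1, and with one variety on each side the deletion and the other genetic differences cannot be told apart.

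Strigolactones are carotenoid-derived hormones that plants make mostly in roots, in larger amounts when phosphate is scarce. They restrain shoot branching, shape the root system and, once exuded, attract mycorrhizal fungi and wake the seeds of parasitic Striga. LGS1 encodes a sulfotransferase-like enzyme that acts late in the pathway in sorghum, and its loss changes which strigolactone is exuded.

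LGS1 (Sobic.005G213600) was examined first, because it checks the labels. It had 1.38, 1.13, 1.57 and 0.454 CPM in the SRN39 libraries, against 36.0, 80.7, 38.4 and 52.4 CPM in the SQR libraries. The groups did not overlap, and all SRN39 libraries lay far below the lowest SQR library. The difference, SRN39 minus SQR, was -5.52 ± 0.39 on the log2 scale (SE, n = 4 each). The SE came from the fit of all 15 libraries. The adjusted p was 1.6e-08 in edgeR's quasi-likelihood test. The 45 counts summed over the SRN39 libraries, against 2233 over the SQR libraries, were not 0.

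Depth, spread and the way the libraries grouped are given once here. Total counts ran between 10223535 and 12256529 in SRN39 and between 6369710 and 17304929 in SQR. The first principal component of the 8 libraries held 63.1% of their variance and separated the genotypes, with SRN39 between 46.5 and 71.8 and SQR between -67.4 and -60.1. The second held 11.8%, and at its ends stood SRN39 replicate 3 (-49.1) and SQR replicate 4 (40.6). Correlations of log CPM between libraries ran between 0.961 and 0.981 within SRN39, between 0.964 and 0.972 within SQR, and between 0.886 and 0.917 across the genotypes. No described gene matched the lists of leaf or endodermis markers, so the root label was not checked here.

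At an adjusted p under 0.05, the test called 3017 genes, which is 17.7% of the genes kept. Of these, 1528 were higher in SRN39 (8.97% of the genes kept) and 1489 were lower (8.74%). With library totals in place of TMM factors, 1239 were higher and 1598 lower, so the balance of directions depends on the scaling. The SRN39 and SQR libraries did not overlap in 2716 of the called genes, and in 22.9% of all genes kept. The median difference of the called genes was 1.27 among those higher and -1.39 among those lower, against -0.03 over all genes kept (log2). At least a 2-fold difference was seen in 2026 called genes, 994 higher and 1032 lower. At least a 16-fold difference was seen in 381, of which 206 were higher and 175 lower. Without SRN39 replicate 3, which stood apart from its group, 3121 genes were called, 1511 higher and 1610 lower, and 2659 of them were among the 3017. These are bulk roots, in which fewer cells of a type and less RNA per cell cannot be told apart.

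The shares of reads on the called genes follow from how the genes were chosen and are given for their size only. Genes called higher held between 10.5% and 11.6% of the reads of the SRN39 libraries, against between 5.05% and 6.02% in SQR. Genes called lower held between 2.21% and 2.76% of the reads in SRN39, against between 5.84% and 6.75% in SQR. Among the 739 genes with a mean of at least 250 CPM, 75 were higher and 30 were lower in SRN39 (14.2% called). Among the 2535 genes under 2 CPM, 212 were higher and 276 were lower (19.3% called), and their median absolute difference was 2.67 on the log2 scale, against 0.95 in the most abundant genes. A gene with few counts needs a larger difference to be called, so these medians do not compare the genes themselves.

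**Figure D1:**
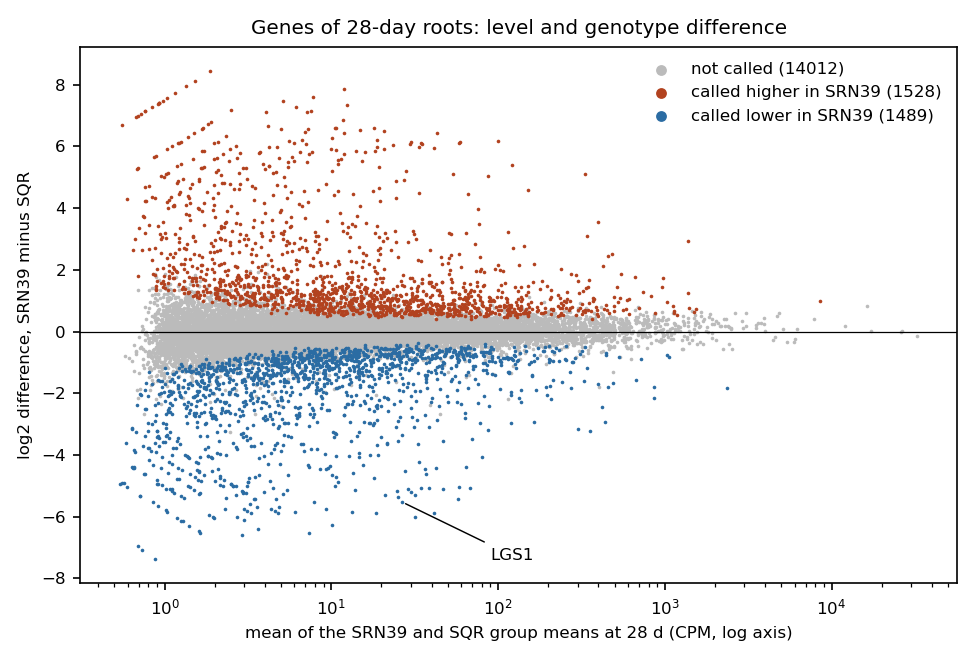
Log2 difference between SRN39 and SQR (vertical axis) against the mean CPM of the groups (horizontal log axis) for the 17029 genes kept, one point per gene. Red points are the 1528 genes called higher and blue points the 1489 called lower in SRN39; LGS1 sits at -5.52.

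Product names could be given for a small, fixed share of the genes. The available annotation covered 413 genes at the start of the gene order, nearly all on chromosome 1, and named 346 of them by the closest match in Arabidopsis or rice, so the roles below are those known from these plants. All 413 were picked by the study as differing between the genotypes in these same libraries. Hence 407 passed the filter here and 393 were called, 213 higher and 180 lower, and neither these counts nor the counts of any group below are independent evidence of a direction. They say which members rose and fell, by how much, and how alike the libraries were. The largest rises and falls named below, and those picked to stand for a list, had to show no overlap between the groups. Lack of overlap is therefore no finding about them.

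The largest rise with a product name was in a match to ubiquitin-specific protease 2 (Sobic.001G186600), an enzyme that removes ubiquitin from proteins. It had 20.7, 21.6, 21.2 and 21.6 CPM in SRN39, against 0.243, 0.239, 0.191 and 0.162 CPM in SQR, and differed by 6.58 ± 0.23 (log2 ± SE, adjusted p 3.1e-12). The SRN39 libraries lay within a narrow band. The SQR libraries together held only 9 counts, so the SE, taken from the F value, may understate the error of this difference. Dynamin related protein 4C (Sobic.001G430500), of a family of membrane-remodelling GTPases, had 26.3, 11.7, 18.4 and 21.4 CPM in SRN39, against 0.487, 0.239, 0.191 and 0.486 CPM in SQR. Its difference was 5.91 ± 0.40 (adjusted p 8.7e-09). A MADS-box transcription factor (Sobic.001G478400), of a class that includes regulators of flowering, had 116, 120, 83.9 and 97.1 CPM in SRN39, against 3.77, 2.55, 3.19 and 2.43 CPM in SQR. It rose by 5.12 ± 0.20 (adjusted p 2.0e-11). Another MADS-box gene, a match to AGAMOUS-like 20 (Sobic.001G526800), fell by 1.36 on the log2 scale.

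A match to sulfate transporter 1;3 (Sobic.001G153100), which moves sulfate between organs in Arabidopsis, had 47.4, 46.7, 26.5 and 68.1 CPM in SRN39, against 2.31, 1.28, 1.02 and 2.11 CPM in SQR. It rose by 4.88 ± 0.36 (adjusted p 2.3e-08), with SRN39 replicate 3 the lowest of its group and still far above SQR. The Pollen Ole e 1 and extensin family gene Sobic.001G308600 followed the same order in SRN39, with 61.0, 48.4, 29.5 and 71.3 CPM, against 1.95, 2.39, 0.893 and 1.95 CPM in SQR. It rose by 4.90 ± 0.50 (adjusted p 1.2e-06). Beta-amylase 1 (Sobic.001G508800), which cuts starch to maltose, had 19.2, 31.6, 66.9 and 31.5 CPM in SRN39, against 2.68, 1.20, 2.81 and 0.973 CPM in SQR. In this gene SRN39 replicate 3 was the highest, and the rise was 4.23 ± 0.45 (adjusted p 2.1e-06).

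The deepest fall with a product name was in a match to the beta-tonoplast intrinsic protein (Sobic.001G208500), a water channel of the vacuole membrane, which had 0.106, 0.307, 0.391 and 0.182 CPM in SRN39, against 7.30, 8.29, 28.1 and 35.8 CPM in SQR. The fall was -6.26 ± 0.61 (adjusted p 7.8e-07), and the SQR libraries themselves split into a low and a high pair. A glycine-rich cell wall structural protein (Sobic.001G232500, matched in rice) had 1.48, 0.512, 1.17 and 0.727 CPM in SRN39, against 66.1, 60.7, 76.4 and 47.0 CPM in SQR. Its difference was -6.00 ± 0.39 (adjusted p 5.6e-09), and here the SQR libraries were alike. A trypsin family protein with a PDZ domain (Sobic.001G100900) had 1.48, 0.922, 3.23 and 0.727 CPM in SRN39, against 51.3, 81.7, 74.0 and 41.5 CPM in SQR. It fell by 5.28 on the log2 scale (SE 0.40, adjusted p 3.2e-08).

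**Figure D2:**
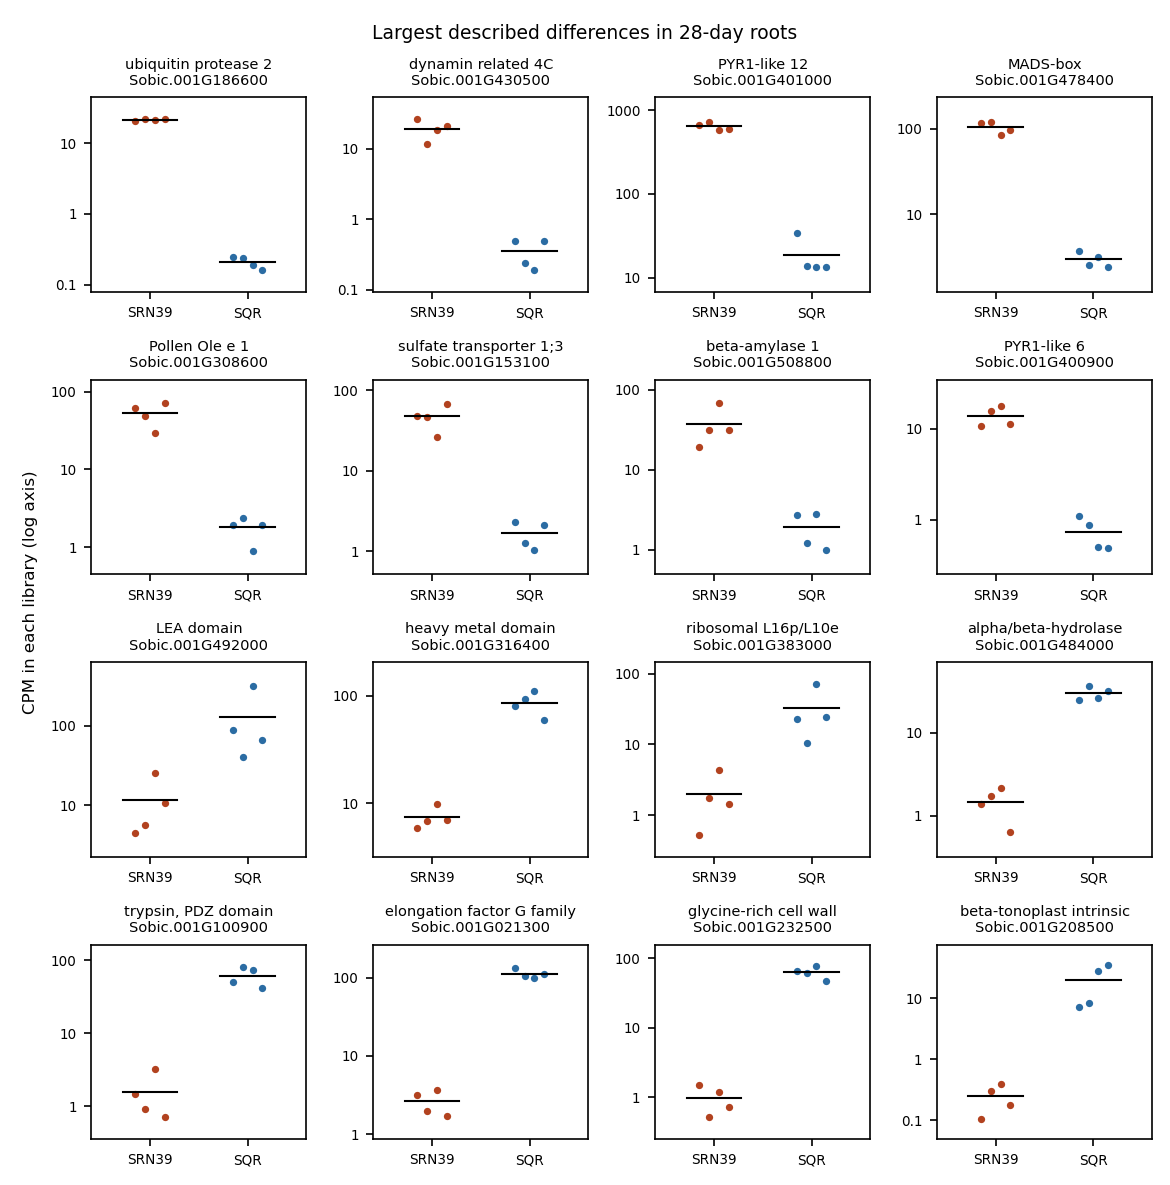
CPM in each of the 4 SRN39 (left) and 4 SQR (right) libraries, on a log axis, for the 8 largest rises and the 8 largest falls. They were taken from called genes with a product name, at least 10 CPM in one genotype and no overlap between the groups. Points are libraries and bars are means. The groups are apart in all 16 genes by this choice, and in the LEA domain gene SQR replicate 3 reaches 317 CPM.

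In the translation list 5 of 7 members kept were lower, 1 was higher and 1 was not called, with a median difference of -1.30. The study had picked all 7 as differing, and the list was made after values had been seen, so the count and the median describe these members only. An elongation factor G family member (Sobic.001G021300), which moves the ribosome along the message, had 3.18, 1.95, 3.72 and 1.73 CPM in SRN39, against 134, 106, 100.2 and 112 CPM in SQR. It fell by 5.42 on the log2 scale (SE 0.23, adjusted p 5.3e-11). Ribosomal protein S3Ae (Sobic.001G467300), of the small subunit, had 35.3, 32.5, 112 and 55.9 CPM in SRN39, against 230, 286, 201 and 149.6 CPM in SQR, a difference of -1.88 ± 0.34 (adjusted p 0.00066). SRN39 replicate 3 came closest to SQR in this gene. The initiation factor subunit eIF3K match (Sobic.001G481700) fell by 1.30 and the cap-binding eIF4E match (Sobic.001G224400) by 0.47 on the log2 scale. The single riser, eukaryotic release factor 1-3 (Sobic.001G123500), differed by 0.53, and its call was lost without SRN39 replicate 4 (adjusted p 0.11) and without SQR replicate 1, 2 or 3 (adjusted p 0.073, 0.053 and 0.065), and also with library totals (0.13), with no filter and after thinning to the smallest library (0.063 each).

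Some genes that fell were uneven among the SQR libraries. The LEA domain gene Sobic.001G492000, of a family of desiccation-protective proteins, had 4.45, 5.53, 25.5 and 10.7 CPM in SRN39, against 88.5, 39.9, 317 and 65.7 CPM in SQR. Actin depolymerizing factor 3 (Sobic.001G034900), which severs actin filaments, had 10.5, 11.99, 28.0 and 12.4 CPM in SRN39, against 102, 34.8, 242 and 63.4 CPM in SQR. The ribosomal protein L16p/L10e gene Sobic.001G383000 had 0.530, 1.74, 4.31 and 1.45 CPM in SRN39, against 23.2, 10.6, 71.3 and 24.3 CPM in SQR. In all 3 genes replicate 3 was the highest library of both genotypes. The lack of overlap between the groups was a condition of their choice. With all libraries the differences were -3.47, -2.82 and -4.004, and without SQR replicate 3 they were -2.48, -2.08 and -3.25 (adjusted p 0.0056, 0.0055 and 0.00047). Across all 1489 genes called lower, SQR replicate 3 was the highest SQR library in 31.8%, against 25.6%, 21.4% and 21.2% for replicates 1, 2 and 4. The same values took part in choosing the 1489, so these shares are description only. The share over all genes kept was not counted.

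The actin list, made after values had been seen, had 3 of 4 members lower and none higher. The others lower were actin depolymerizing factor 4 (Sobic.001G417600, -1.40) and Sobic.001G013200 (-1.24), while the abundant actin depolymerizing factor 6 (Sobic.001G070000) averaged 724 CPM in SRN39 and 933 CPM in SQR, a difference of -0.37 (adjusted p 0.19).

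Cell wall genes moved both ways. All 4 class III peroxidases, secreted enzymes that use hydrogen peroxide and can stiffen walls, rose, with differences between 0.97 and 1.19. The most abundant, Sobic.001G360500, had 604, 679, 696 and 725 CPM in SRN39, against 338, 361, 292 and 266 CPM in SQR (1.10 ± 0.27, adjusted p 0.0080). Both dirigent-like genes, whose products steer the coupling of phenolics, were higher. The abundant one, Sobic.001G507100, had 223, 224, 134 and 174 CPM in SRN39, against 54.7, 83.9, 92.1 and 75.6 CPM in SQR (1.30 ± 0.25, adjusted p 0.0011). Of the 4 expansins, which loosen walls, 2 were higher and 2 lower. The expansin B2 match Sobic.001G300700 averaged 102 ± 7.5 CPM in SRN39 and 41.6 ± 9.9 CPM in SQR (SD, n = 4 each), whereas its relatives expansin-like A1 (Sobic.001G311000) and a further expansin B2 match (Sobic.001G542200) fell by 1.04 each on the log2 scale. The second riser, Sobic.001G542100, was called with all libraries (0.80, adjusted p 0.042), and the call was lost without any one of 6 libraries, SRN39 replicates 1 to 4 and SQR replicates 1 and 3, where its adjusted p lay between 0.056 and 0.11. It was also lost with library totals (0.13), in the fit of the 8 libraries of 28 d (0.052) and after thinning to the smallest library (0.059). The xyloglucan endotransglucosylase/hydrolase 9 match (Sobic.001G179400), which cuts and rejoins xyloglucan chains, had 1.80, 2.15, 2.25 and 3.00 CPM in SRN39, against 15.5, 12.6, 10.01 and 13.8 CPM in SQR (-2.48 ± 0.31, adjusted p 1.4e-05). An invertase/pectin methylesterase inhibitor (Sobic.001G198800) was higher by 1.46 ± 0.27 (adjusted p 0.00078).

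Of 10 glycosyl hydrolases kept, which include beta-amylase 1, 8 were lower and 2 higher, with a median of -1.10. The study had picked all 10 as differing, and the list was made after values had been seen, so the count and the median describe these members only. The glycosyl hydrolase family 10 gene Sobic.001G466000, of a family of xylan-cleaving enzymes, had 63.1, 59.96, 59.3 and 65.8 CPM in SRN39, against 90.9, 172, 95.3 and 124 CPM in SQR (-0.96 ± 0.22, adjusted p 0.0044). The SRN39 libraries were nearly equal and the SQR libraries were spread. The count of lower members was 4 without SRN39 replicate 1, and 5 without SRN39 replicate 3 or SQR replicate 3, and the count of higher members was 1 without SRN39 replicate 1.

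All 3 members kept of the fatty acid and wax list, each picked by the study as differing, were higher: a match to stearoyl-acyl-carrier-protein desaturase (Sobic.001G280700), which places the first double bond in plant fatty acids, 3-ketoacyl-CoA synthase 6 (Sobic.001G453200), which elongates very long chains for waxes, and a long-chain fatty alcohol dehydrogenase (Sobic.001G221400). The desaturase had 71.4, 74.0, 94.6 and 73.1 CPM in SRN39, against 24.3, 36.8, 31.9 and 35.2 CPM in SQR (1.29 ± 0.21, adjusted p 0.00024). The synthase averaged 85.9 CPM in SRN39 and 40.6 CPM in SQR, and the dehydrogenase averaged 16.8 CPM in SRN39 and 6.65 CPM in SQR. Of 4 lipid transfer proteins, small secreted carriers of lipids, 3 were higher and 1 was lower. Sobic.001G128500 averaged 123 ± 29 CPM in SRN39 and 57.2 ± 1.1 CPM in SQR (SD, n = 4 each), and Sobic.001G473200 fell by 1.20. Of 13 lipases and other hydrolases, 8 were higher, 3 lower and 2 not called. The most abundant, the alpha/beta-hydrolase Sobic.001G330000, had 1749, 1608, 1099 and 1208 CPM in SRN39, against 466, 495, 546 and 572 CPM in SQR (1.45 ± 0.22, adjusted p 0.00012). Its relative Sobic.001G484000 went the other way, with 1.38, 1.74, 2.15 and 0.636 CPM in SRN39, against 24.7, 36.0, 26.0 and 31.6 CPM in SQR (-4.32 ± 0.27, adjusted p 3.2e-09).

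Detoxification families were split. Of 9 glutathione S-transferases, which conjugate glutathione to toxic compounds, 5 were higher and 4 were lower. All 4 matches to the tau class member TAU 18 were higher, by 1.22 to 1.34, and the most abundant of them, Sobic.001G280800, averaged 1041 CPM in SRN39 and 432 CPM in SQR. The match to the phi class member F11 (Sobic.001G310300) had 4.45, 5.53, 3.52 and 4.81 CPM in SRN39, against 27.5, 34.5, 34.5 and 36.3 CPM in SQR (-2.85 ± 0.20, adjusted p 1.2e-08). Whether reads were shared among members of this family was not analysed here, so values of single members are uncertain. Of 10 cytochromes P450, 7 were lower and 3 higher, with a median of -1.003. The family 93 member Sobic.002G000400 had 5.94, 5.43, 5.97 and 3.91 CPM in SRN39, against 39.1, 28.1, 11.5 and 27.2 CPM in SQR (-2.31 ± 0.32, adjusted p 4.1e-05). Ferulic acid 5-hydroxylase 1 (Sobic.001G196300), which directs lignin precursors to syringyl units, fell by 1.21 and allene oxide synthase (Sobic.001G449700), an entry step of jasmonate synthesis, by 1.11 on the log2 scale. Both lipoxygenases, of a family with members that act before that step, were higher. Whether these 2 do so is not given by their product names. Sobic.001G125900 had 182, 216, 149 and 183 CPM in SRN39, against 107, 70.7, 89.5 and 103 CPM in SQR (0.98 ± 0.16, adjusted p 0.00025). Of 4 UDP-glycosyltransferases, 3 were higher and 1 lower. The UGT74F2 match Sobic.001G238500 averaged 8.21 CPM in SRN39 and 0.197 CPM in SQR, and the UGT85A3 match Sobic.001G012400 had 108, 159, 135 and 123 CPM in SRN39, against 75.1, 27.3, 18.5 and 15.7 CPM in SQR.

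Nutrient genes included the phosphate starvation list, of which 4 of 5 members were higher. SPX domain gene 4 (Sobic.001G028500), whose product restrains phosphate starvation regulators when phosphate is ample, had 8.80, 10.1, 12.8 and 9.99 CPM in SRN39, against 1.46, 1.43, 1.08 and 1.95 CPM in SQR (2.85 ± 0.24, adjusted p 1.4e-07). PHOSPHATE STARVATION RESPONSE 1 (Sobic.001G384300), one of the regulators that SPX proteins hold back, averaged 27.5 CPM in SRN39 and 16.5 CPM in SQR (0.74, adjusted p 0.019). The purple acid phosphatases, which release phosphate from organic compounds, had 2 matches higher, Sobic.001G442300 (0.86) and Sobic.002G008500 (0.75). Another phosphatase, Sobic.001G013800, differed by -0.93 (adjusted p 0.027), and this call was lost without SRN39 replicate 1 or 2 or SQR replicate 2, 3 or 4, each of which left 0 members lower. Among 10 metal and mineral transport genes, 6 were higher, 3 lower and 1 not called. A MATE efflux gene (Sobic.001G185400) had 27.4, 19.5, 18.1 and 22.9 CPM in SRN39, against 6.08, 2.55, 5.17 and 4.05 CPM in SQR (2.30 ± 0.31, adjusted p 3.5e-05). A heavy metal domain gene (Sobic.001G316400) had 5.94, 6.87, 9.79 and 7.09 CPM in SRN39, against 81.2, 93.5, 111 and 59.3 CPM in SQR (-3.54 ± 0.29, adjusted p 7.5e-08). The count of higher members in that list was 3 without SRN39 replicate 2 or SQR replicate 1, 2 without SQR replicate 4 and 1 without SQR replicate 3. The other aquaporin, a match to NOD26-like intrinsic protein 5;1 (Sobic.001G195800), a boron channel in Arabidopsis, was among the most abundant genes named, with 1050.2, 1708, 814 and 989 CPM in SRN39, against 708, 445, 413 and 489.8 CPM in SQR (1.15 ± 0.24, adjusted p 0.0025).

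Auxin genes, regulators and defence genes followed. In the auxin list 2 of 4 members were higher, 1 lower and 1 not called. The GH3 family gene Sobic.001G331200, of enzymes that conjugate auxin to amino acids, had 117, 107, 104 and 118 CPM in SRN39, against 48.7, 36.6, 64.3 and 29.2 CPM in SQR (1.31 ± 0.22, adjusted p 0.00024). An AUX/IAA repressor (Sobic.001G056100) had 8.91, 7.89, 6.17 and 8.27 CPM in SRN39, against 19.6, 24.2, 32.5 and 32.3 CPM in SQR (-1.80 ± 0.23, adjusted p 1.4e-05). The member not called, the dormancy/auxin associated gene Sobic.001G377000, differed by -0.83 (adjusted p 0.052) and was not called in the edgeR fit with all libraries. The list had 2 members lower, however, without SQR replicate 2, with limma-voom, with DESeq2, with library totals, with no filter or one over 15 libraries, in the fit of the 8 libraries of 28 d and after thinning to the smallest library. Of 28 transcription factors, 17 were higher, 10 lower and 1 not called, and the count higher was 10 without SRN39 replicate 2. The RAD-like 6 match (Sobic.001G434800), a small MYB-related protein, fell by 1.40 and averaged 53.04 ± 14.6 CPM in SRN39 and 139.5 ± 26.3 CPM in SQR (SD, n = 4 each). Of 11 protein kinases, 8 were higher and 3 lower, led by Sobic.001G446000 with 25.9, 31.2, 22.5 and 29.6 CPM in SRN39, against 5.47, 4.78, 5.29 and 3.89 CPM in SQR (2.48 ± 0.25, adjusted p 1.3e-06). The count of lower kinases was 1 without SQR replicate 2.

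Heat shock and chaperone genes were higher in 5 of 6 cases, by 0.70 to 1.61, and 1 HSP20-like gene (Sobic.001G520500) fell by 1.63. The DNAJ gene Sobic.001G287500, of co-chaperones of HSP70, averaged 56.2 ± 3.8 CPM in SRN39 and 34.7 ± 5.2 CPM in SQR (SD, n = 4 each). Small GTPases, which switch membrane traffic, were higher in 6 of 7 cases, but the count was 2 or 3 when any library other than SRN39 replicate 3 or SQR replicate 4 was left out. The Ras-related gene Sobic.001G143300 had 125, 137, 82.3 and 102 CPM in SRN39, against 36.3, 38.7, 37.9 and 35.3 CPM in SQR (1.59 ± 0.23, adjusted p 8.0e-05). In the ubiquitin and proteasome list 6 of 9 members were higher and 3 lower, and the count higher was 1 without SRN39 replicate 1 and 2 without SRN39 replicate 2 or SQR replicate 2 or 3. A ubiquitin family gene (Sobic.001G231500) had 84.1, 69.7, 62.1 and 89.8 CPM in SRN39, against 275, 289, 335 and 370 CPM in SQR (-2.05 ± 0.18, adjusted p 2.4e-07). The transcription factor, kinase, GTPase, ubiquitin, metal transport and lipase lists were made after values had been seen.

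Of 11 pathogenesis-related genes, 8 were lower and 3 higher, with a median of -1.40. In it, 7 neighbouring genes (Sobic.001G400700 to Sobic.001G401300) match Arabidopsis PYR1-like proteins, which bind abscisic acid in that plant, and 5 of them were lower and 2 higher. They entered this list through a defence word in their rice matches, not through the Arabidopsis names. Whether they bind abscisic acid was not tested. Whether reads were shared among these neighbours was not analysed here, so values of single members are uncertain. Sobic.001G401000 had 671, 727, 574 and 599 CPM in SRN39, against 33.8, 13.7, 13.4 and 13.3 CPM in SQR (5.12 ± 0.30, adjusted p 1.9e-09), while Sobic.001G401300 had 235, 309, 459 and 259 CPM in SRN39, against 1672, 1806, 1109 and 1058 CPM in SQR (-2.16 ± 0.36, adjusted p 0.00024). The defensin-like gene Sobic.001G194000 and the thaumatin gene Sobic.001G250100, both of antimicrobial families, fell by 1.40 and 0.68 on the log2 scale. The abundant CAP family gene Sobic.001G333400, of the PR-1 type, averaged 316 CPM in SRN39 and 174 CPM in SQR (0.86, adjusted p 0.016).

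The strigolactone list held 7 genes named by the study, of which 3 were higher, 2 lower and 2 not called. Only 1 of the 7 lay in the part of the study's annotation used here. Whether the study picked the others as differing was therefore not read. The study reports higher expression of several strigolactone synthesis genes in SRN39 in this experiment. The counts are therefore no independent evidence of a direction. Among the enzymes, CCD8 (Sobic.003G293600), which makes the precursor carlactone, had 12.4, 13.1, 29.0 and 6.81 CPM in SRN39, against 4.87, 5.34, 2.81 and 4.86 CPM in SQR (1.79 ± 0.39, adjusted p 0.0029), and LBO (Sobic.003G418000), an oxidase that acts on carlactone derivatives, averaged 27.4 ± 2.5 CPM in SRN39 and 14.2 ± 1.2 CPM in SQR (SD, n = 4 each, 0.95, adjusted p 0.0028). CCD7 (Sobic.006G170300) had between 0.273 and 1.84 CPM in SRN39, against between 0.486 and 1.83 CPM in SQR, and was not called (0.27 ± 0.60, adjusted p 0.82). Of the GRAS factors matching NSP1, a regulator of strigolactone synthesis genes, Sobic.001G341400 had 19.4, 25.0, 22.8 and 18.7 CPM in SRN39, against 5.84, 12.04, 7.46 and 5.999 CPM in SQR (1.44 ± 0.28, adjusted p 0.0012), and Sobic.002G372100 differed by 0.66 (adjusted p 0.078). Sobic.002G372100 was called higher in the fit of the 8 libraries of 28 d (0.66, adjusted p 0.020) and in that fit with the replicate number as a block (0.70, adjusted p 0.011). SMXL3 (Sobic.008G042800), of a family of repressors, was at 0.307 to 1.18 CPM in SRN39, against 1.30 to 3.43 CPM in SQR (-1.34, adjusted p 0.033), a call lost without SRN39 replicate 1 or 2 or SQR replicate 2 or 3 (adjusted p 0.055 to 0.12), after thinning to the smallest library (0.095) and with the replicate number as a block (0.097).

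**Figure D3:**
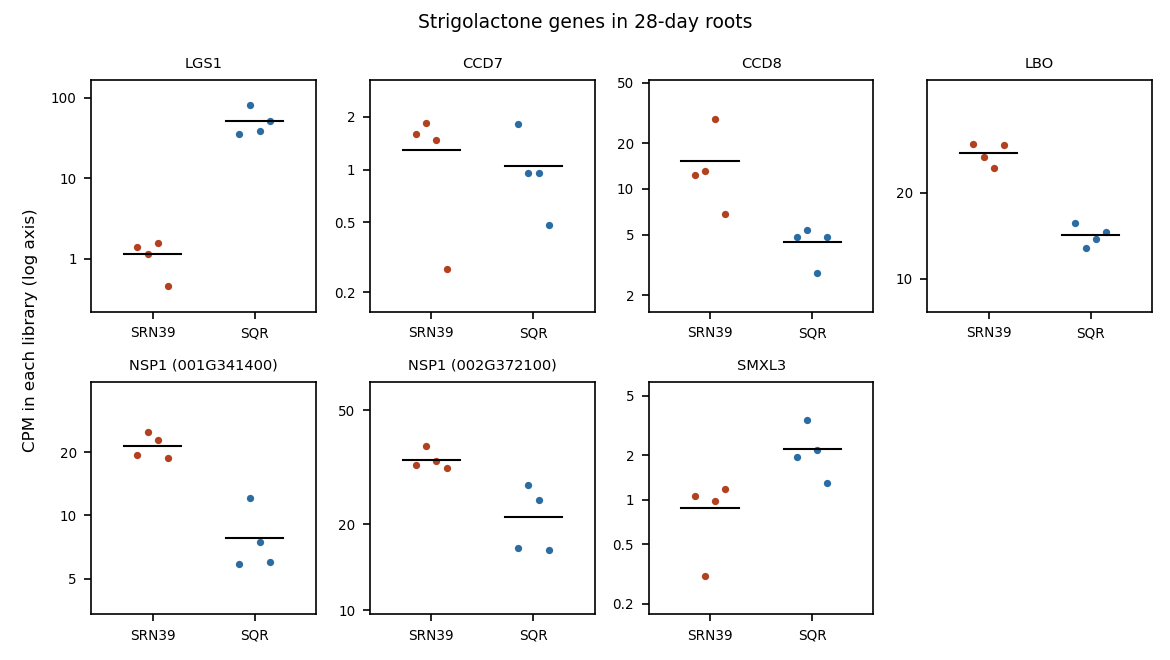
CPM in each SRN39 (left) and SQR (right) library, on a log axis, for the 7 strigolactone genes; points are libraries and bars are means. LGS1 is lower in SRN39 (0.454 to 1.57 CPM against 36.0 to 80.7 CPM), the CCD8 and LBO groups do not overlap, and the CCD7 groups do.

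Several genes resembled LGS1 in having very few reads in one genotype. Reads were mapped to the genome of another genotype, BTx623, and the part of sequence differences in these low counts was not tested. No gene met the strict definition of at most 1 count in all libraries of one genotype together and at least 5 CPM in the other. With 1 CPM in place of 5, 24 genes were near 0 in SRN39 and 47 in SQR. A looser reading took LGS1 itself as the limit, at 2.18% of the other genotype's level, with at least 10 CPM there. It gave 10 genes low in SRN39, LGS1 included, of 8182 genes with at least 10 CPM in SQR. It gave 48 low in SQR, of 8113 genes with at least 10 CPM in SRN39. This reading was chosen after the counts were seen. At 35 d, 7 of the 10 and 42 of the 48 were under 5% of the other genotype. LGS1 itself, at 5.33%, and the beta-tonoplast intrinsic protein gene, at 8.59%, were not among the 7. The beta-tonoplast intrinsic protein and glycine-rich genes above were among the 10, and the ubiquitin-specific protease 2 and dynamin related 4C genes among the 48. The 10 lay on 6 chromosomes and the 48 on all 10.

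Product names were at hand for 328 of the 3017 called genes, so most of the largest differences had none. Genes that reached 10 CPM in one genotype and did not overlap were ranked by their difference, and 2 of the 40 largest rises and 5 of the 40 largest falls had one. Sobic.002G059600 had 41.0, 19.2, 18.2 and 17.2 CPM in SRN39, against 0, 0.239, 0.0638 and 0 CPM in SQR. Sobic.005G221800 had 0.212, 0, 0.196 and 0.182 CPM in SRN39, against 14.2, 12.1, 12.7 and 19.5 CPM in SQR. Sobic.001G026600 had 0.424, 0.102, 1.17 and 0.727 CPM in SRN39, against 41.6, 34.4, 37.3 and 33.2 CPM in SQR. These identifiers were picked after their values were seen.

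The called genes were spread unevenly over the genome, as read from the chromosome number and order in the gene identifiers. The share called lay between 14.3% on chromosome 4 and 28.3% on chromosome 5, where 128 of 846 genes were higher and 111 were lower. Chromosome 8 followed with 21.2%. In 335 consecutive windows of 50 genes kept, the median share called was 18% and the highest 54%. That window, Sobic.005G205300 to Sobic.005G219900, holds LGS1, and of its 27 called genes 15 were higher and 12 lower. Which of its genes the deletion in SRN39 removes was not examined. Neighbouring genes kept that were called in the same direction formed 58 runs of at least 3 genes, 23 higher and 35 lower. The longest were 8 genes higher on chromosome 8 (Sobic.008G158266 to Sobic.008G158800) and 5 higher on chromosome 2 (Sobic.002G059600 to Sobic.002G060900). The run Sobic.001G186300 to Sobic.001G186600, 4 genes higher, ends with the ubiquitin-specific protease 2 gene. LGS1 lies in the run Sobic.005G213500 to Sobic.005G213700, 3 genes lower. These are descriptions, with no test of position.

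**Figure D4:**
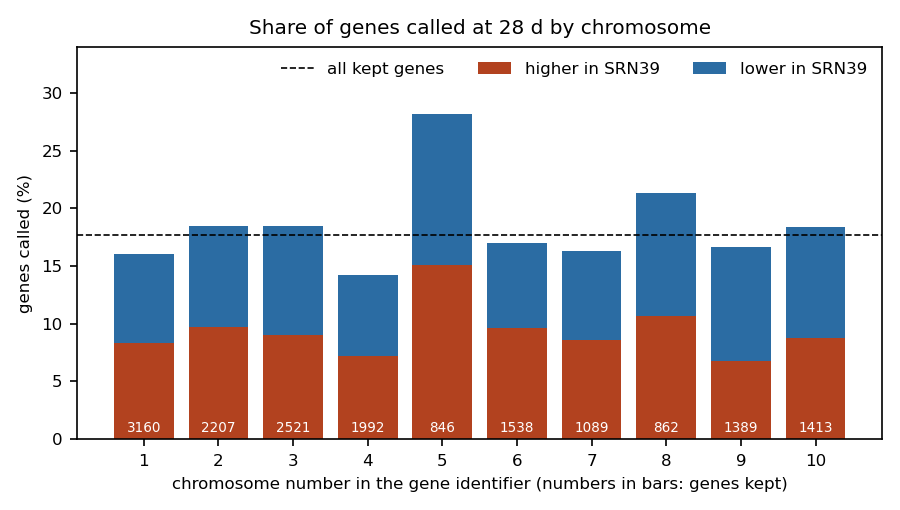
Percent of the genes kept on each chromosome (horizontal axis) that were called higher (red, below) or lower (blue, above) in SRN39; white numbers are genes kept and the dashed line is the 17.7% of all genes. Chromosome 5 stands highest at 28.3% and chromosome 4 lowest at 14.3%.

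The same genes were then read in 35-day roots, from 4 SRN39 and 3 SQR libraries of other plants. Of the 3017 genes called at 28 d, 2632 (87.2%) had the same sign at 35 d, and 1988 were also called there, 1911 with the same sign and 77 with the opposite one. How many of all genes kept had the same sign at both ages was not counted. At 35 d, 36.6% of all genes kept were called. The difference between the ages was tested in the same model. It was called in 378 of the 3017 genes (12.5%), against 8.32% of all genes kept, and this contrast holds the 28 d values that chose the 3017. Of the 378, 158 were higher and 220 lower in SRN39 at 28 d, 238 had the opposite sign at 35 d, 75 were smaller there and 65 larger. SQR replicate 3 was the highest SQR library at 28 d in 47.3% of the 220, against 12.3%, 16.4% and 24.1% for replicates 1, 2 and 4. The same values took part in choosing the 220, so these shares are description only. The share over all genes kept was not counted. The count over all genes kept, 1417, was 923 without SRN39 replicate 4 of 28 d and 885 without SQR replicate 4 of 28 d.

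Named genes gave examples. The 3 genes in which SQR replicate 3 stood high had differences at 35 d of 1.68 (LEA domain, Sobic.001G492000), 1.23 (actin depolymerizing factor 3, Sobic.001G034900) and -0.09 (ribosomal L16p/L10e, Sobic.001G383000), and the change between ages was called in each (adjusted p 0.0068, 0.0078 and 0.014). The GH3 gene Sobic.001G331200 differed by 1.31 at 28 d and by -1.16 at 35 d (adjusted p of the change 0.0011). The NSP1 match Sobic.001G341400 had the same sign at both ages and a larger difference at 35 d, 1.44 at 28 d and 2.85 at 35 d (adjusted p of the change 0.041). The ubiquitin-specific protease 2 gene differed by 6.58 at 28 d and 5.79 at 35 d, with an adjusted p of 0.52 for the change. Of the auxin and abscisic acid genes that the study singled out, the SAUR50 match Sobic.007G191400 was lower at 28 d (-0.83, adjusted p 0.0031), the SAUR72 matches Sobic.002G259100 and Sobic.004G156300 were not called (-0.07 and -0.03, adjusted p 0.86 and 0.96, with a sign that turned without some libraries), and of the HAI3 matches Sobic.003G354000 was lower (-0.98, adjusted p 0.015, lost without SRN39 replicate 1 or 4 or SQR replicate 3 at adjusted p 0.060, 0.058 and 0.076) and Sobic.002G172000 was not called (-0.66, adjusted p 0.21).

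**Figure D5:**
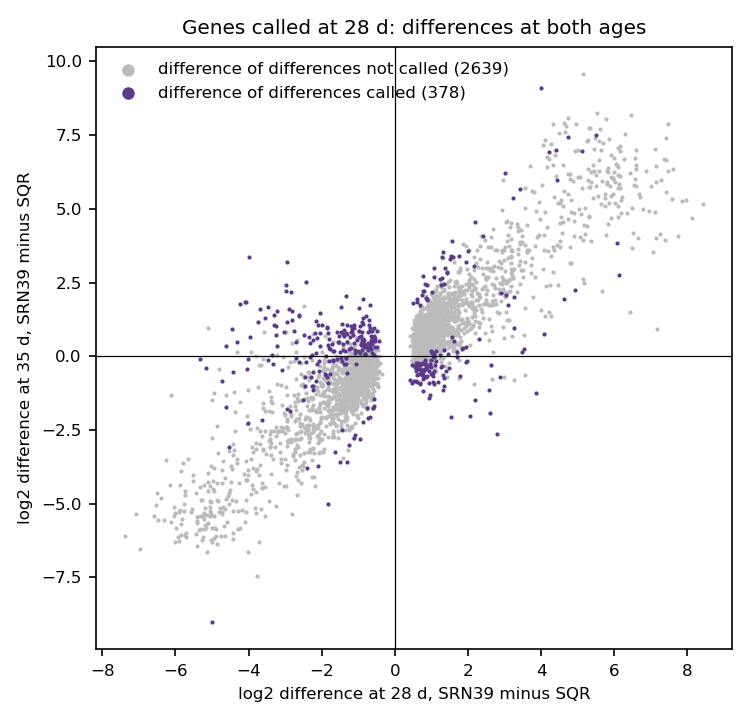
Log2 difference between SRN39 and SQR at 35 d (vertical axis) against that at 28 d (horizontal axis) for the 3017 genes called at 28 d, one point per gene. Purple points are the 378 genes whose difference changed between the ages; 2632 of all points have the same sign on both axes, and the purple points include 238 with opposite signs.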

How the data were processed

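Whole roots of SRN39 and SQR were profiled at 28 d and 35 d by 3′ mRNA-Seq. The authors pooled technical replicates, trimmed reads and mapped them with STAR (version not given in the sources used here) to the genome of another genotype, BTx623, allowing up to 20 loci and 5 mismatches, and deposited raw counts per gene. A read that differs from BTx623, or ends outside its gene models, may go uncounted in one genotype; its part in the differences was not tested. Of the columns, 15 matched a sample and 1 matched none and was not used.

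The filter asked for over 1 CPM in 3 or more of the 8 libraries of 28 d. Counts were fitted for all 4 groups of genotype and age (15 libraries) in edgeR 4.0.16 (R 4.3.3) with TMM factors and the quasi-likelihood F test, and p-values were adjusted by Benjamini-Hochberg over all genes kept. A gene was called at an adjusted p under 0.05. The SE of a log2 difference was the absolute difference divided by the square root of its F value. It therefore rests on all 15 libraries and on spread pooled across genes, not on the 8 libraries of 28 d alone. Where one genotype had only a few counts, this SE can be smaller than the counting error. CPM values printed are counts relative to the TMM-scaled library size. Library totals, between 6369710 and 17304929 counts in the 28 d groups, set the precision. Product names came from the study's table of genes that differed between genotypes, of which 413 genes were used here; the RefSeq gene table matched 0 identifiers. Named genes were the genes the study discusses, the 8 largest rises and falls with a product name, at least 10 CPM and no overlap, and up to 2 rises and 2 falls per list, with other list members given by value; those few were chosen after values were seen. The members and lists were chosen with earlier results of these data known. Alternatives used limma 3.58.1, DESeq2 1.42.0, other scalings, filters, thinning and leaving out libraries. The test was checked on simulated counts. No pair of libraries held identical counts.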

Additional observations from a re-analysis of the deposited data

Results flagged for a closer look

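A single library stood far from its 3 group mates in 5 of 174 groups examined, the SRN39 and the SQR libraries of 87 named genes, while chance gives about 1 in 20. Actin depolymerizing factor 3 (Sobic.001G034900) had 28.0 CPM in SRN39 replicate 3 and 10.5 to 12.4 CPM in the other SRN39 libraries. The stearoyl-acyl-carrier-protein desaturase (Sobic.001G280700) had 94.6 CPM in SRN39 replicate 3 and 71.4 to 74.0 CPM in the others. The RNI-like gene Sobic.001G477400, of the auxin list, had 41.1 CPM in SRN39 replicate 1 and 48.7 to 49.5 CPM in the others. The PYR1-like 12 match Sobic.001G401000 had 33.8 CPM in SQR replicate 1 and 13.3 to 13.7 CPM in the other SQR libraries. The HAI3 match Sobic.002G172000 had 5.10 CPM in SQR replicate 3 and 2.55 to 2.92 CPM in the others.

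The genotype difference itself differed between 28 d and 35 d in 21 of the 87 named genes by edgeR's test of that change, with adjusted p-values between 0.0011 and 0.041. Values here are the log2 difference at 28 d minus that at 35 d, each SRN39 minus SQR. Among genes with opposite signs at the ages, some of them near 0 at one age, it was -5.14 (the LEA domain gene, Sobic.001G492000), -4.04 (actin depolymerizing factor 3, Sobic.001G034900), -2.97 (a HAI3 match, Sobic.002G172000), -2.06 (the AUX/IAA repressor, Sobic.001G056100), -1.63 (a HAI3 match, Sobic.003G354000), -1.30 (a SAUR72 match, Sobic.002G259100), -1.23 (a calmodulin-binding kinase, Sobic.001G503300) and -1.18 (a SAUR72-like match, Sobic.004G156300), all lower at 28 d relative to 35 d. It was 1.04 (ADP-ribosylation factor B1B, Sobic.001G281900), 1.30 (pectin methylesterase 31, Sobic.001G252300), 1.62 (the dirigent-like gene, Sobic.001G507100), 2.14 (the UGT85A3 match, Sobic.001G012400) and 2.47 (the GH3 gene, Sobic.001G331200) in genes of opposite signs that were higher in SRN39 at 28 d. The 28 d call of pectin methylesterase 31 was lost without SRN39 replicate 1 or 2 or SQR replicate 1 or 2 (adjusted p 0.057 to 0.085). That of the calmodulin-binding kinase was lost without SRN39 replicate 4 or SQR replicate 2 (adjusted p 0.055 and 0.052). Among genes with the same sign and a smaller difference at 35 d, it was -1.01 (glutathione S-transferase F11, Sobic.001G310300), -3.92 (the ribosomal L16p/L10e gene, Sobic.001G383000), 1.11 (an RNI-like gene, Sobic.001G477400) and -2.29 (the family 93 cytochrome P450, Sobic.002G000400). Among genes with a larger difference at 35 d, it was -1.41 (an NSP1 match, Sobic.001G341400), -2.72 (a PYR1-like 6 match, Sobic.001G400900), -1.85 (a PYR1-like 12 match, Sobic.001G401000) and -1.18 (an alpha/beta-hydrolase, Sobic.001G483900).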

How the results depend on the processing

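Nothing in the labels says that the replicate numbers pair the samples. The deviations of same-numbered SRN39 and SQR libraries from their group means correlated between -0.10 and 0.18, with a mean of 0.04. Those of different-numbered libraries correlated between -0.39 and 0.33. So few pairs cannot decide whether same-numbered libraries shared a batch or day, which was not tested. With the replicate number as a block in the 8 libraries of 28 d, 3333 genes were called, 1715 higher and 1618 lower, and LGS1 differed by -5.47. Without the block, the fit of these 8 libraries called 3508 genes. Set against the fit of all 15 libraries, the blocked fit changed the call of 2 named genes, SMXL3 (Sobic.008G042800, lost) and Sobic.002G372100 (gained). Sobic.002G372100 was also called in the 8 libraries without the block (adjusted p 0.020), so the block was not needed for its call. At an adjusted p under 0.01 instead of 0.05, 1902 genes were called, 979 higher and 923 lower, and 334 genes changed between the ages. The other tools, scalings, filters and the fit of the 8 libraries of 28 d called between 2781 and 3508 genes. Library totals without TMM factors gave 1239 genes higher and 1598 lower, with a median of -0.11 over all genes, and left as higher 1 expansin, 2 metal transport, 2 ubiquitin, 3 small GTPase and 11 transcription factor members, and 0 members of the translation list and of the cellulose and callose synthase list. Leaving out single libraries gave between 2336 and 3121 genes called, between 885 and 1284 genes that changed between the ages, between 1185 and 1511 genes higher and between 1144 and 1610 lower, and LGS1 between -5.73 and -5.24. Genes at or near 0 in one genotype numbered 0 by the strict definition, 71 with at least 1 CPM in the other genotype, 9 with at most 3 counts, and between 0 and 5 without single libraries. The SAUR72 match Sobic.002G259100, at -0.07, turned to 0.06 without SRN39 replicate 3 and 0.10 without SQR replicate 3 (lowest without a library -0.165, without SRN39 replicate 2), and Sobic.004G156300, at -0.03, to 0.11 without SRN39 replicate 3 and 0.04 without SQR replicate 4 (lowest -0.115, without SQR replicate 3). Of 82 named genes called, 72 were called in every alternative that gave a value, and of 66 counts by list and direction 46 stayed within 1.5 times. Shallow libraries limit genes near 1 CPM. The SE of a log2 difference comes from the fit of all 15 libraries. With 4 libraries of each genotype at 28 d, the errors measure only the spread between the samples used.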
